A study of Homo sapiens with 4 samples.

Results

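The neurotensin system examined here comprises 4 genes: NTS, which encodes the precursor of the peptide neurotensin, its G protein-coupled receptors NTSR1 and NTSR2, and SORT1, which encodes the sorting receptor sortilin. They were the rows of the deposited count table whose Ensembl identifiers carry these 4 symbols, out of 20263 genes listed, and were chosen by the N_12 against DMSO difference of NTSR1 that was already known from this table. The cells were HCT116, an established human colon carcinoma line that carries an activating mutation of beta-catenin, given either N_12 or DMSO for 24 h, with 2 mRNA libraries in each group and no other difference stated between them. N_12 is named as a nilotinib derivative by the series title, but the treatment tag of its samples reads HJJ_3_5 and no dose is stated. As a tumour-derived line it comes without stroma or nerves, so it can show a receptor's transcript but not the tissue that would supply the ligand.

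Neurotensin is a short peptide that enteroendocrine N cells of the small bowel and neurons cut from a longer precursor. NTSR1 binds it with high affinity and couples mainly to Gq, so that phospholipase C releases calcium and activates protein kinase C and the ERK pathway, while NTSR2 binds it with lower affinity and is found mostly in brain. Sortilin binds neurotensin too, but its main work is to carry cargo such as progranulin and prosaposin between the Golgi, endosomes and the cell surface. NTSR1 is known as a target gene of beta-catenin and TCF factors that colon tumours carry more often than normal colon epithelium.

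Sequences just before the transcription start are shown for NTSR1, the member with the high level, and NTS, the member with almost no reads. They show how the starts of NTSR1 and NTS differ in composition. The starts of NTSR2 and SORT1 were not examined, so no link between composition and level is drawn. The 250 bases before the start of each gene were taken from RefSeq (GRCh38.p14, both on the plus strand), at chr20:62708586-62708835 for NTSR1 and chr12:85874045-85874294 for NTS, and lie upstream of the first exon. Capitals mark matches to the searched motifs.
NTSR1: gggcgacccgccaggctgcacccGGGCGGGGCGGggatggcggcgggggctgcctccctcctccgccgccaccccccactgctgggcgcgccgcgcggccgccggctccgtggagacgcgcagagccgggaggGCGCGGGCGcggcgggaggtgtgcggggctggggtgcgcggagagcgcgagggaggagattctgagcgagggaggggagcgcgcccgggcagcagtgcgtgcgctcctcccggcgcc
NTS: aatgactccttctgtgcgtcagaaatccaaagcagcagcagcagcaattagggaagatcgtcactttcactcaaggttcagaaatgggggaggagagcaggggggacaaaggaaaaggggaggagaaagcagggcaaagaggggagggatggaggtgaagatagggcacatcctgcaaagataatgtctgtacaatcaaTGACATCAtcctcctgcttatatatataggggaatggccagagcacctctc

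The NTSR1 window was 82.0% G and C with 38 CpG dinucleotides, and the NTS window was 49.2% G and C with 2. The medians over 35097 windows of the same length were 58.0% and 11 CpG dinucleotides. On both strands 6 motifs were searched. The Sp1 motif GGGCGG occurred at -227 and -222 from the start of NTSR1, the matches sharing 1 base, and is found in 42.6% of all windows. The EGR1 motif GCGNGGGCG began at -117 of NTSR1 and is found in 8.41% of windows. In NTS the CRE-like motif TGACNTCA began at -51 and is found in 6.87% of windows. The TCF/LEF core CTTTGA (11.2% of windows), the AP-1 motif TGANTCA (6.57%) and the E-box CACGTG (6.34%) had no match in either window, which says only that these letters are not there.

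NTSR1 (ENSG00000101188) was the one member whose level differed between the groups. It had 5025 and 5099 reads in DMSO replicates 1 and 2 and 19394 and 20571 reads in N_12 replicates 1 and 2. Scaled to library size by TMM, this was 165 and 173 CPM (the count scaled to a common library size) in DMSO and 460 and 505 CPM in N_12, or 169 ± 6.11 and 482 ± 31.3 CPM (mean ± SD, n = 2 per group). Both N_12 libraries lay above both DMSO libraries, as they did for 27.9% of all tested genes. The fitted fold was 2.85, a log2 fold change of 1.51 (SE 0.13), given as a description because the gene was singled out with this contrast known. Whether more cells carried the transcript or each cell carried more of it cannot be told apart in bulk RNA.

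**Figure D1:**
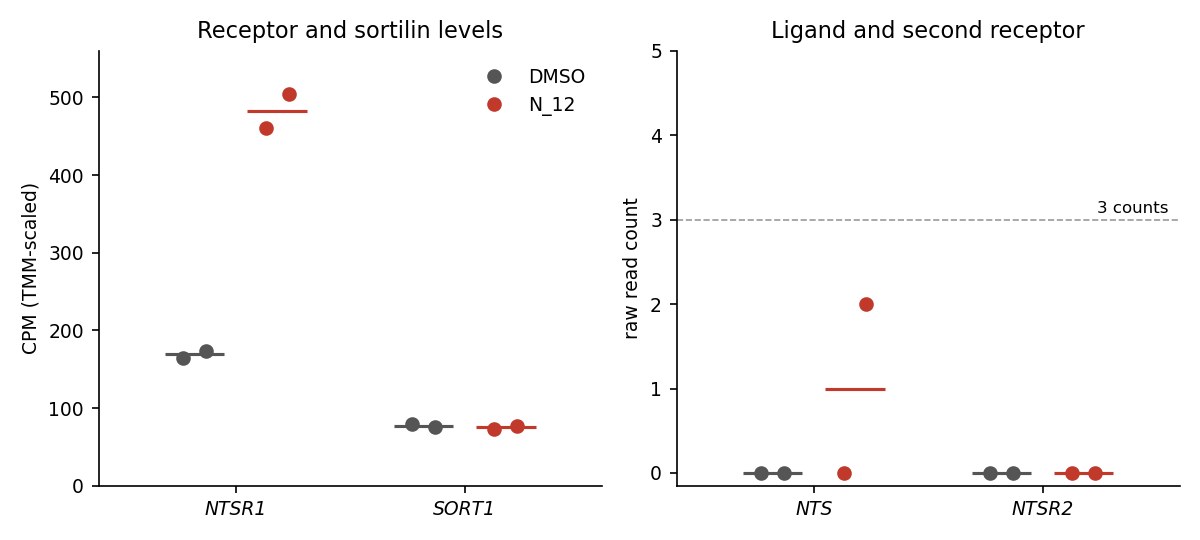
Left, CPM of NTSR1 and SORT1 in each library, and right, raw read counts of NTS and NTSR2 on their own axis; points are libraries (n = 2 per group) and bars are group means. NTSR1 lies near 169 CPM in DMSO and 482 CPM in N_12, SORT1 is near 76 CPM throughout, and NTS and NTSR2 stay below the dashed line at 3 counts.

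Divided by exon length (4237 bases in GENCODE release 29), NTSR1 stood at 38.9 and 40.9 CPM per kb in DMSO and at 109 and 119 CPM per kb in N_12. On this scale it lay at the 93.3rd percentile of 14089 tested genes in DMSO and at the 98.3rd in N_12. Among all tested genes its log2 fold change was the 69th from the top. Of 2078 genes averaging 100 CPM or more over both groups, it ranked next after DAG1, the dystroglycan gene. DAG1 had a log2 fold change of 2.23 (47.2 CPM in DMSO, 222 CPM in N_12) but did not pass the test. A cut on this mean also admits genes that are high in N_12 alone. These ranks by fold change restate the difference that chose NTSR1. No exon base of NTSR1 is shared with another gene on either strand in that annotation.

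NTS (ENSG00000133636), the ligand precursor, had 0 reads in both DMSO libraries, 0 in N_12 replicate 1 and 2 in N_12 replicate 2. A count of 0 allows up to 3 reads, which is 0.0984 and 0.102 CPM in the DMSO libraries and 0.0712 CPM in N_12 replicate 1, counting error only. Both groups were thus at or under this limit, and no fold is given. NTSR2 (ENSG00000169006), the lower-affinity receptor, had 0 reads in each of the 4 libraries, and 3 reads over a whole group would be 0.0501 CPM in DMSO and 0.0362 CPM in N_12. Neither gene passed the filter on low counts, so 2 of the 4 members were tested. At this depth the libraries held at least 5025 reads of the receptor NTSR1 and at most 2 of its peptide ligand.

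SORT1 (ENSG00000134243) did not differ beyond the spread between libraries. It stood at 79.5 and 75.3 CPM in DMSO and at 73.6 and 77.2 CPM in N_12, and the groups overlapped. The means were 77.4 ± 2.96 and 75.4 ± 2.59 CPM, with a log2 fold change of -0.04 (SE 0.14, 95% interval -0.35 to 0.28). This interval leaves room for small differences in either direction. Divided by its exon length of 9160 bases, SORT1 had 8.68 and 8.22 CPM per kb in DMSO and 8.03 and 8.43 in N_12. The NTSR1 level per length was thus 4.48 and 4.98 times that of SORT1 in the DMSO libraries and 13.5 and 14.1 times in the N_12 libraries.

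Per length the order of the members was the same in all 4 libraries, with NTSR1 above SORT1 and both far above NTS and NTSR2, which do not differ beyond counting error. Of the tested members 1 of 2 was called higher by edgeR at an adjusted p of 0.05. Over all 14105 tested genes edgeR called 0.822% higher (116) and 1.43% lower (201), 2.25% in all. An unadjusted p under 0.05 by edgeR was found for 3081 of these genes, while DESeq2 called 1220 and limma-voom 131. Nothing is read from the members' share, since this same contrast chose them.

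The place of NTSR1 among receptors was read from 108 receptor genes, made up of both neurotensin receptors, 6 close relatives and 100 other G protein-coupled receptors that epithelial cells can carry. In both DMSO libraries NTSR1 ranked in place 3 by CPM per kb, below F2RL1, the protease-activated receptor PAR2 (104 and 97.7 CPM per kb), and GPRC5A, an orphan receptor induced by retinoic acid (101 and 91.6). In both N_12 libraries it ranked in place 1, at 109 and 119 CPM per kb, with F2RL1 at 85.9 and 80.9 and GPRC5A at 69.2 and 67.5. NTSR1 made up 7.10% and 7.84% of the summed level of these receptors in DMSO and 19.2% and 20.4% in N_12. The neighbours in this order were themselves not called, with adjusted p = 0.254 for F2RL1 and 0.0862 for GPRC5A by edgeR, while DESeq2 called GPRC5A lower (log2 fold change -0.50 in edgeR).

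**Figure D2:**
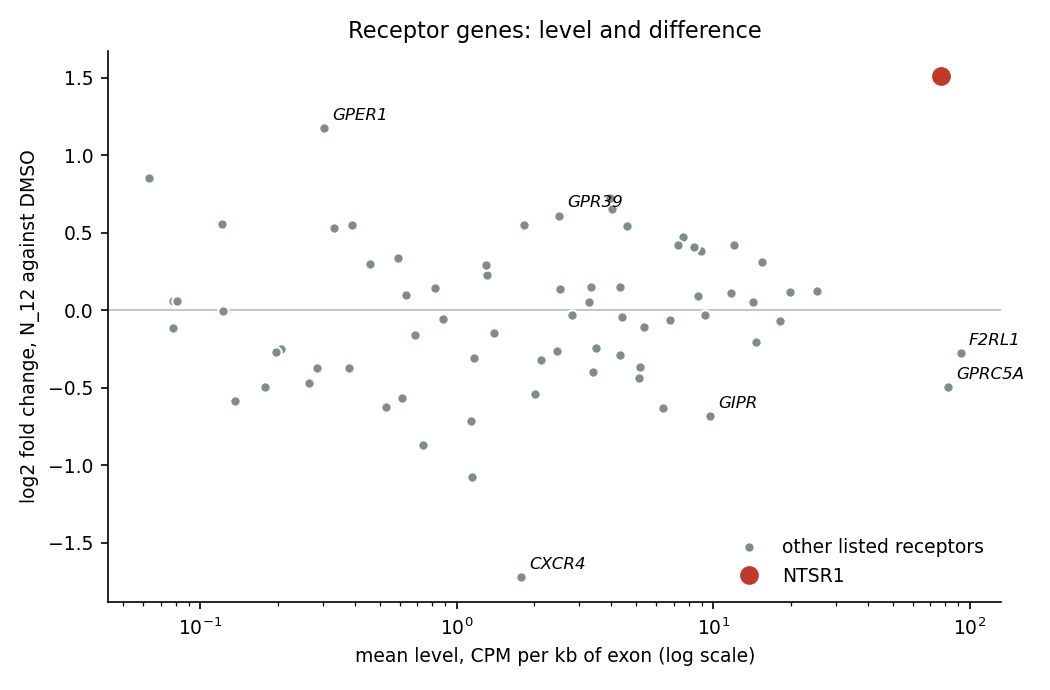
Each point is a tested receptor gene, with its mean CPM per kb of exon over both groups on a log axis and its log2 fold change (N_12 against DMSO) on the other axis. NTSR1, which was chosen for this difference, lies at 1.51, above all other listed receptors, and CXCR4 at -1.72 is the lowest.

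Of the 100 other receptors 71 were tested, with a median log2 fold change of -0.03 beside 0.01 over all tested genes. CXCR4, the receptor of the chemokine CXCL12, alone was called by edgeR, where 2.25% of all tested genes were called. It fell from 6.39 and 5.75 CPM in DMSO to 1.52 and 2.16 CPM in N_12, which the fit put at -1.72 in log2 fold change (SE 0.26, adjusted p = 0.0210 by edgeR). With a replicate block of crossed numbers CXCR4 was not called (adjusted p = 0.0741 by edgeR). The receptor of the incretin hormone GIP, GIPR, was at 56.7 ± 1.66 and 35.3 ± 2.73 CPM (log2 fold change -0.68, adjusted p = 0.0631 by edgeR), and did not pass. No receptor of this list was called higher by edgeR, although 9 had an unadjusted p under 0.05 on that side and 9 on the other. Over all 14105 tested genes 3081 had such a p in either direction. DESeq2 called 1 higher and 4 lower, and limma-voom 0 higher and 1 lower. PTGER3, FZD10, AVPR1A, EDNRB, SSTR1 and GALR1 were among 10 receptors with 0 reads in all libraries.

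The receptors closest to the neurotensin receptors in sequence, those of ghrelin, motilin, neuromedin U and thyrotropin-releasing hormone and the zinc-sensing GPR39, mostly had few or no reads. GHSR, MLNR and NMUR2 had 0 reads in every library and GPR39 alone was tested. It had 6.72 ± 0.457 CPM in DMSO against 10.3 ± 0.0334 CPM in N_12. Both N_12 libraries lay above both DMSO libraries, as for 27.9% of all tested genes. GPR39 did not pass (log2 fold change 0.61, SE 0.19, adjusted p = 0.122 by edgeR). Among the VPS10-domain relatives of sortilin, SORL1, which sorts the amyloid precursor protein, was at 152 ± 5.81 and 110 ± 11.8 CPM (log2 fold change -0.47, adjusted p = 0.118 by edgeR), and DESeq2 called it lower. Per length SORL1 reached 7.62 and 8.04 CPM per kb in DMSO, close to SORT1, and 5.24 and 6.10 in N_12. SORCS2 was tested at 1.02 ± 0.192 and 1.58 ± 0.617 CPM and did not pass, SORCS3 had 0 reads, and SORCS1 was under the filter.

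Enzymes that make or break the peptide were next compared. Of 15 such genes 12 were tested, with a median log2 fold change of 0.05. PAM, the peptide amidating enzyme (neurotensin itself is not amidated), fell from 307 ± 18.1 to 182 ± 0.871 CPM, which is -0.75 in log2 fold change (SE 0.13, adjusted p = 0.0296 by edgeR). That call ended without DMSO replicate 1 (adjusted p = 0.0503) or DMSO replicate 2 (adjusted p = 0.0739) and with limma-voom (adjusted p = 0.0527), and its adjusted p ranged from 1.29e-05 to 0.158 over 13 other settings. ECE1, the endosomal protease that degrades neurotensin and lets NTSR1 return to the surface, stood at 178 and 172 CPM in DMSO and at 263 and 268 CPM in N_12. Its log2 fold change of 0.60 (SE 0.12) lay just outside the threshold (adjusted p = 0.0539 by edgeR), and DESeq2 called it higher, as did edgeR with libraries scaled by their totals. The convertase gene PCSK1 and the neprilysin gene MME had 0 reads in every library.

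The signalling chain below NTSR1 was mostly present and showed no call. Of 16 tested genes of Gq and other G protein subunits, phospholipase C and IP3 receptors edgeR called 0, with 0 at an unadjusted p under 0.05 and 0 by DESeq2 or limma-voom. The median log2 fold change was 0.02. The calcium channel gene ITPR3 had more reads than any other gene of the list, at 507 ± 39.4 and 560 ± 61.8 CPM. The Gq subunit genes GNAQ and GNA11 lay between 72.0 and 94.7 CPM and between 122 and 151 CPM over the 4 libraries. GNB2, a beta subunit, had a log2 fold change of -0.30 (adjusted p = 0.282 by edgeR), and PLCB1, a phospholipase, of 0.38 (adjusted p = 0.304). GNA12 differed widely between replicates, with 63.0 and 59.4 CPM in DMSO and 15.5 and 79.9 CPM in N_12. Its 95% interval of -3.92 to 3.20 is too wide for the missing call to say much. GNA14 and GNA15 were under the filter.

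The protein kinases C and D, some of which Gq signalling activates, had a median log2 fold change of 0.00 over 10 tested genes. EdgeR, DESeq2 and limma-voom called 0 of them, and 0 had an unadjusted p under 0.05. PRKD2 had the most reads, at 127 ± 0.639 and 107 ± 14.3 CPM. PRKCA had a log2 fold change of -0.25 (95% interval -0.55 to 0.06), and PRKCB and PRKD1 had 0 reads in all libraries.

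Kinases, arrestins and RGS proteins that switch such receptors off had a median of -0.02 over 18 tested genes. EdgeR and limma-voom called 0 of them, 0 higher and 3 lower had an unadjusted p under 0.05, and DESeq2 called 3 lower. Those 3 were RGS proteins, which speed the shut-off of G proteins: RGS10 at 124 ± 0.629 and 84.3 ± 9.74 CPM (log2 fold change -0.56, adjusted p = 0.0866 by edgeR), RGS16 at 5.70 ± 0.467 and 2.74 ± 0.916 CPM (-1.06, adjusted p = 0.0903) and RGS17. The receptor kinase gene GRK2 had the most reads, at 152 ± 4.91 and 174 ± 18.9 CPM. Both beta-arrestin genes were expressed, ARRB1 between 21.5 and 28.9 CPM and ARRB2 between 60.4 and 66.6 CPM over the 4 libraries.

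**Figure D3:**
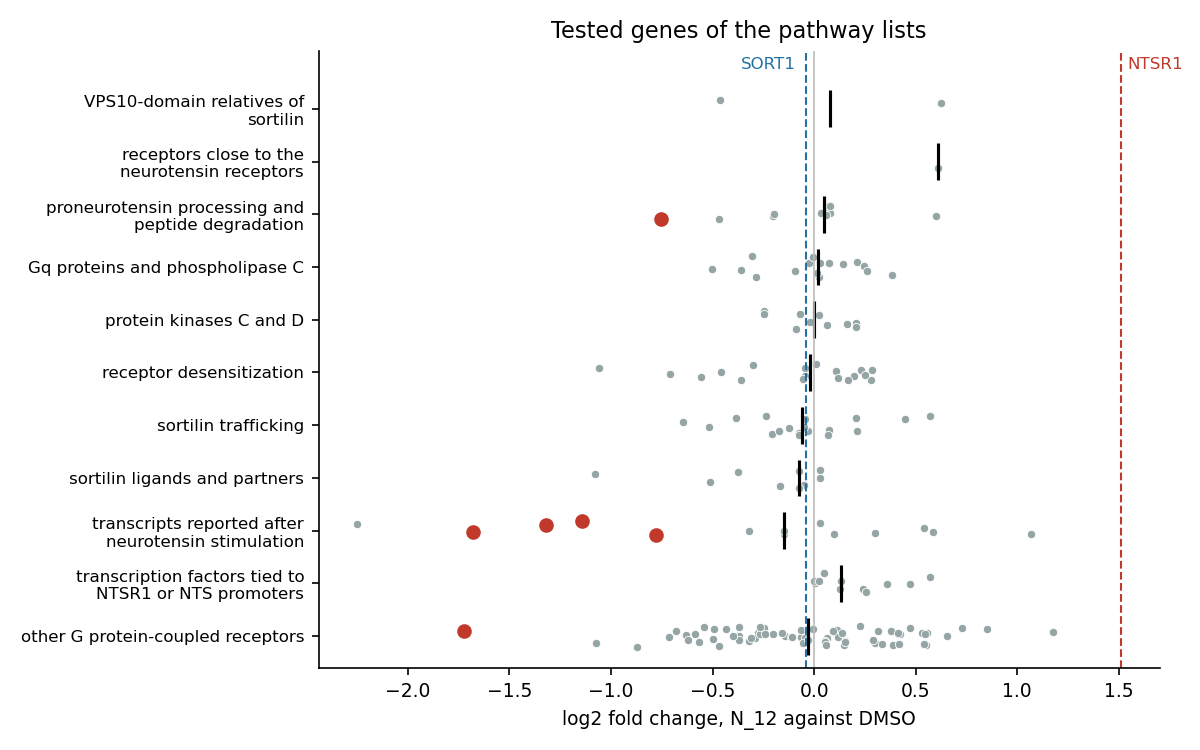
Points are tested genes of each pathway list at their log2 fold change (N_12 against DMSO), red where edgeR called them, black bars are list medians, and dashed lines mark NTSR1 (1.51) and SORT1 (-0.04). The 6 called genes all lie on the lower side, 4 of them among transcripts reported after neurotensin stimulation.

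Genes whose transcripts are reported to rise when neurotensin acts on its receptor held 4 of the 6 calls that edgeR made in the pathway lists. Of 14 tested genes 4 fell and 0 were called higher by edgeR, beside 1.43% lower and 0.822% higher over all tested genes, and the median was -0.15. At an unadjusted p under 0.05 there were 3 higher and 6 lower, DESeq2 called 1 higher and 4 lower, and limma-voom 0 and 2. This list was drawn up with the fall of several of these genes already known, so their count is no independent support. They are also general early-response and growth genes that respond to many signals.

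FOS, an AP-1 subunit, fell from 34.5 and 33.0 CPM in DMSO to 10.9 and 10.2 CPM in N_12, which is -1.68 in log2 fold change (SE 0.16, adjusted p = 0.00428 by edgeR). EGR1, a zinc finger factor induced through ERK, fell from 671 and 567 to 253 and 243 CPM (log2 fold change -1.32, SE 0.14). JUN, the partner of FOS, fell from 162 and 137 to 84.0 and 90.0 CPM (-0.78, SE 0.14), and the growth regulator MYC from 18.0 and 13.6 to 7.95 and 6.38 CPM (-1.14, SE 0.22). All 4 had N_12 libraries wholly below DMSO libraries, as 26.8% of all tested genes did.

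The calls of JUN and MYC did not hold without DMSO replicate 1 (adjusted p = 0.167 and 0.132 by edgeR), with limma-voom, or with dispersions that were not robust. Over 13 other settings the adjusted p of JUN ranged from 0.000152 to 0.167 and that of MYC from 0.000709 to 0.187. Without DMSO replicate 1 or 2 the log2 fold change was -1.65 and -1.71 for FOS and -1.19 and -1.435 for EGR1. With a replicate block of crossed numbers neither FOS nor EGR1 was called (adjusted p = 0.0573 for each by edgeR). Not every gene of the list lay lower. PLAUR, the urokinase receptor gene, was at 97.4 and 84.0 CPM in DMSO and 131 and 141 CPM in N_12, and the chemokine gene CXCL8 at 11.6 and 9.86 and at 17.5 and 13.7 CPM. Neither passed by edgeR (adjusted p = 0.0758 and 0.175), but PLAUR was called higher by DESeq2 and with the replicate block. The lowest value of the list was that of MMP9, at 0.990 and 0.205 CPM (log2 fold change -2.25, adjusted p = 0.0718 by edgeR). MMP9 did not pass, but was called lower with the replicate block. The highest was that of CXCL2, at 0.902 and 1.90 CPM (1.07, adjusted p = 0.121 by edgeR), which did not pass. CCND1, the cyclin D1 gene and the one with most reads in the list, was at 444 ± 23.0 and 476 ± 13.6 CPM (log2 fold change 0.10), and PTGS2, the cyclooxygenase 2 gene, between 4.02 and 5.85 CPM in all libraries.

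Among 11 tested genes listed as factors tied to the promoters of NTSR1 or NTS, edgeR, DESeq2 and limma-voom made no call. AXIN2, which is not itself a transcription factor, was among them. The list left out EGR1, FOS and JUN, which were counted above among transcripts reported after neurotensin stimulation and were called lower by edgeR. The median of the 11 tested genes was 0.13, and 3 higher and 0 lower had an unadjusted p under 0.05 by edgeR. CTNNB1, which encodes beta-catenin, had 272 ± 56.5 CPM in DMSO against 272 ± 21.2 CPM in N_12. Its log2 fold change was 0.00 (95% interval -0.39 to 0.39). The TCF family member TCF7 was at 21.5 ± 0.177 and 29.8 ± 1.18 CPM (0.47, adjusted p = 0.134 by edgeR). The AP-1 member FOSL1 was at 140 ± 35.6 and 209 ± 1.23 CPM (0.57, adjusted p = 0.137 by edgeR). FOSL1 was called higher with the replicate block. TCF7L2, the main TCF of colon epithelium, lay between 115 and 124 CPM, and LEF1 had 0 reads.

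On the side of sortilin, 18 genes of its transport (GGA adaptors, retromer, AP-1 adaptor and the mannose 6-phosphate receptors) were all tested, with a median of -0.06. EdgeR and limma-voom called 0, 1 higher and 2 lower had an unadjusted p under 0.05, and DESeq2 called IGF2R higher and M6PR lower. These are the mannose 6-phosphate receptors, which share the lysosomal sorting route with sortilin. IGF2R was at 146 ± 0.568 and 217 ± 19.8 CPM (log2 fold change 0.57, adjusted p = 0.0707 by edgeR) and M6PR at 61.4 ± 15.4 and 39.3 ± 1.08 CPM (-0.64, adjusted p = 0.122). Of the GGA adaptors, which bind the tail of sortilin, GGA1 lay between 77.0 and 82.6 CPM and GGA3 between 77.1 and 81.4 CPM. GGA2 had 101 and 93.3 CPM in DMSO and 70.8 and 77.6 CPM in N_12, without overlap, and did not pass (log2 fold change -0.39, adjusted p = 0.165 by edgeR).

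Ligands and partners of sortilin had a median of -0.08 over 9 tested of 14 genes. EdgeR, DESeq2 and limma-voom called 0, while 0 higher and 3 lower had an unadjusted p under 0.05. Prosaposin (PSAP), a lysosomal activator that sortilin carries, had the most reads, at 1046 ± 55.7 and 806 ± 75.7 CPM (log2 fold change -0.38, adjusted p = 0.162 by edgeR). APOB, the apolipoprotein B gene, had 0 reads in all libraries.

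Over all 11 lists, 182 of 232 genes were tested. EdgeR called 6 lower (CXCR4, EGR1, FOS, JUN, MYC and PAM) and 0 higher, 3.30% in all beside the 2.25% of all tested genes. An unadjusted p under 0.05 by edgeR was found for 18 higher and 25 lower, beside 3081 of all 14105 tested genes. DESeq2 called 4 higher and 14 lower, beside 1220 of all 14105 genes. Limma-voom called 0 and 3, beside 131 over all genes. Only the direction of the 6 calls is described, since the lists were drawn up with earlier results in view.

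Genes next to NTSR1 on chromosome 20 did not share its difference in level. Of the 5 listed genes on each side, in the order of GENCODE release 29, 8 were tested and edgeR called 0. Of these, 0 higher and 1 lower had an unadjusted p under 0.05, DESeq2 called 0 higher and 1 lower (RPS21), and limma-voom 0. Their log2 fold changes ran from -1.02 for the ribosomal protein gene RPS21 to 0.23 for DIDO1, with a median of -0.07. The nearest on either side were the organic anion transporter SLCO4A1 (-0.02, 95% interval -0.35 to 0.32) and the chromatin protein MRGBP (-0.24, 95% interval -0.55 to 0.08). The interval of each tested neighbour lay wholly below the fitted value of NTSR1. NTSR1 was chosen for this difference and ranked 69th from the top of all tested genes, so almost any gene would have a lower value.

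**Figure D4:**
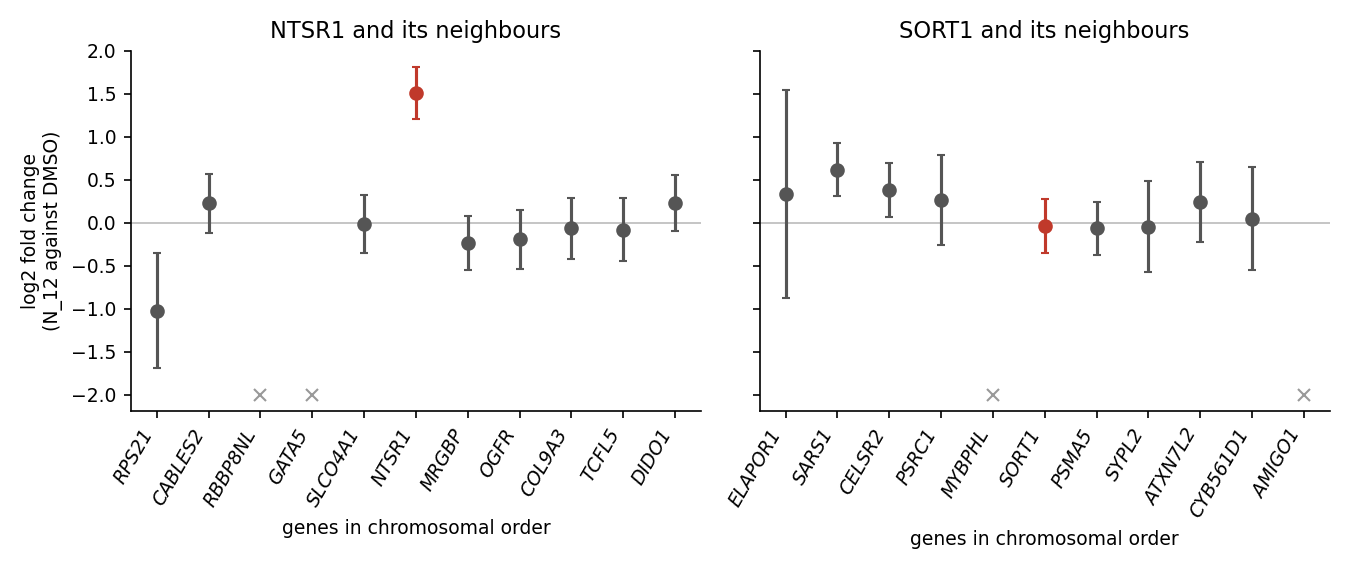
Log2 fold change (N_12 against DMSO) with 95% intervals for NTSR1 and SORT1 (red) and the 5 listed genes on each side in chromosomal order (grey); crosses at the bottom mark genes not tested. NTSR1, which was chosen for its difference, is at 1.51, and its 8 tested neighbours range from -1.02 to 0.23. SORT1 at -0.04 lies among values from -0.06 to 0.62.

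Around SORT1 on chromosome 1, 8 of 10 neighbours were tested and edgeR called 0, with 2 higher and 0 lower at an unadjusted p under 0.05. DESeq2 called 1 higher, the seryl-tRNA synthetase gene SARS1, and limma-voom 0. SARS1 had 155 CPM in DMSO against 238 CPM in N_12 (log2 fold change 0.62, adjusted p = 0.0597 by edgeR). CELSR2 and PSRC1, which share a regulatory region for blood lipids with SORT1 in liver, had log2 fold changes of 0.38 and 0.27. Around NTS on chromosome 12, 5 of 10 neighbours were tested, and RASSF9, the gene just before it, had 0 reads. Around NTSR2 on chromosome 2, 9 of 10 neighbours were tested, LPIN1, a lipid phosphatase gene, being the nearest on one side at 133 and 117 CPM. NTSR2, without reads, thus lay among expressed genes.

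The genes whose pattern over the 4 libraries was most like that of NTSR1 were found by the root mean square difference of log2(CPM + 0.5), centred on each gene's mean, among 11162 genes averaging 5 CPM or more. They were the sialyltransferase ST6GAL1 (difference 0.044, from 6.08 to 19.0 CPM), the galactosyltransferase B3GALT5 (0.10), the lymphotoxin beta receptor LTBR (0.11, from 51.6 to 127 CPM), the histone reader ZMYND11 (0.12) and the glycine transporter SLC6A9 (0.13). For SORT1 the nearest were the stress kinase MAPK13 (0.0029), USE1, PRKCSH, PIP4K2B and CAMK2G (0.0093), all with log2 fold changes from -0.05 to -0.03. With 4 libraries in 2 groups, such likeness mostly restates the difference between the group means.

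Identity and depth of the libraries were checked on marker genes. Total counts ranged from 29769568 to 41717938, and the N_12 libraries were the deeper ones. Of 11 colon epithelium markers 8 were tested, with the keratins KRT8, KRT18 and KRT19, the claudins CLDN3 and CLDN4, EPCAM, CDH1 and CDX2 present, while CDX1 had 0 reads and KRT20 and VIL1 were under the filter. Their summed level was 4124 to 5088 CPM in DMSO and 3443 to 4096 CPM in N_12, and the list median was -0.22 in log2 fold change. CDX2 lay the other way, at 13.9 ± 0.454 and 21.4 ± 0.988 CPM (0.62, adjusted p = 0.0926 by edgeR). In this list 1 higher and 3 lower had an unadjusted p under 0.05 by edgeR, and DESeq2 called 1 higher and 0 lower. CLDN4 differed widely between replicates, with 458 and 24.3 CPM in DMSO and 70.6 and 376 CPM in N_12. Of 12 enteroendocrine markers, the cell type that makes neurotensin in the gut, 4 were tested and the summed level was 24.7 to 25.0 CPM in DMSO and 22.0 to 26.9 CPM in N_12. The defining genes CHGA, CHGB, NEUROD1 and INSM1 were under the filter, and SCG3, NEUROG3 and INSL5 had 0 reads. SYP, the synaptophysin gene, was called lower by edgeR (log2 fold change -1.09, adjusted p = 0.0476) and not by limma-voom. The other tested markers of this list had log2 fold changes of 0.33 (SCG2), 0.40 (PYY) and 0.61 (TPH1), none called, and the list median was 0.37. Fibroblast, leukocyte, endothelial and neural lists held DCN, LUM, COL1A2, PTPRC and CD3E at 0, with 2, 3, 2 and 4 genes tested. The summed fibroblast level was 72.4 to 78.1 CPM in DMSO and 67.5 to 71.9 CPM in N_12, and the leukocyte level 35.9 to 43.2 and 44.1 to 51.0 CPM. The endothelial level was 1.46 to 1.61 and 0.878 to 2.45 CPM, and the neural level 168 to 175 and 138 to 165 CPM. All 3 tested leukocyte markers (ITGAM, CD14 and CD68) had both N_12 libraries above both DMSO libraries, as did 27.9% of all tested genes. The median log2 fold change of these markers was 0.64 and none was called. COL1A1, CD68, SYT1 and MBP, which the line expressed, made up much of the fibroblast, leukocyte and neural sums. Their part in the results was not tested.

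The value of NTSR1 was also computed under 13 other settings. All of them refit libraries of the contrast that chose NTSR1, so a positive value is no independent support for NTSR1. Its log2 fold change was positive in all 13 and ran from 1.44 to 1.56, less than the spread of 0.12 between libraries from the value given. It was called under 11 of them. Without N_12 replicate 1 or without N_12 replicate 2 edgeR called no gene at all, NTSR1 included, while 2855 and 2763 genes were under 0.05 by the unadjusted p of edgeR. The value was then 1.56 and 1.44. SORT1 ran from -0.08 to 0.01 and was called under none of the 13.

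**Figure D5:**
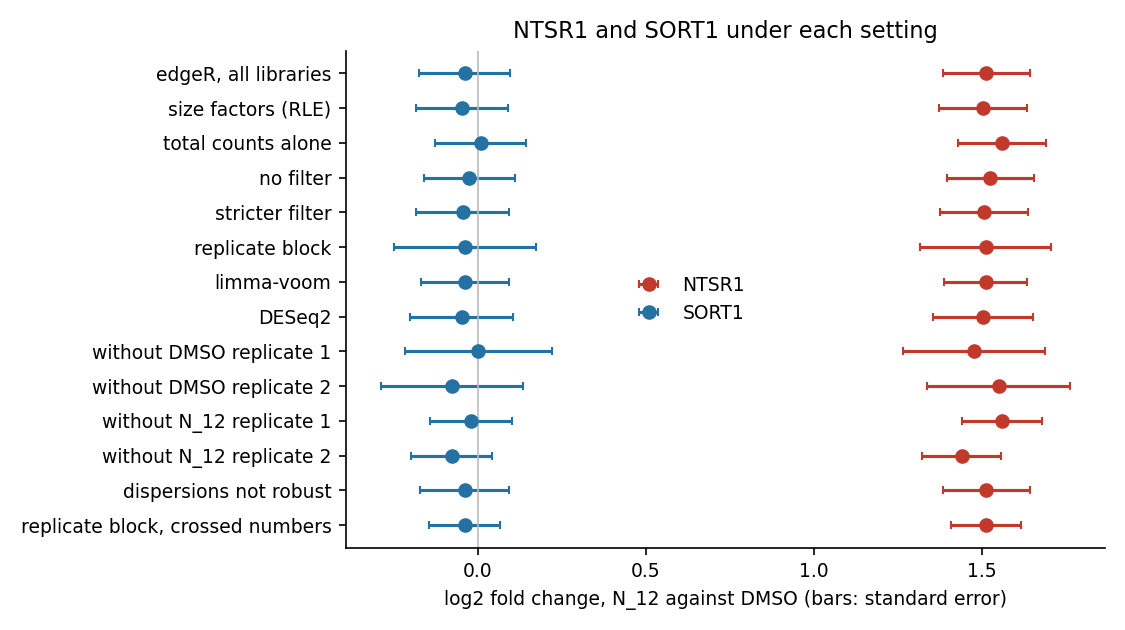
Log2 fold change (N_12 against DMSO) of NTSR1 (red) and SORT1 (blue) under each setting, with bars for the standard error. NTSR1 stays between 1.44 and 1.56 and SORT1 between -0.08 and 0.01.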

How the data were processed

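The authors deposited raw counts per gene, in whole numbers and not normalized, for 4 libraries of HCT116 cells (n = 2 per group). The aligner and the counter were not given in the sources used here, nor was the use of strand. Per the submitters' processing notes the builds are GRCm38 and mm10, which are mouse builds and do not match the human identifiers. Groups and replicate numbers come from the sample titles. Symbols were found for 20148 of 20263 identifiers and 3554 genes had 0 counts throughout. Exon lengths, gene order and overlap come from GENCODE release 29 (GRCh38) and promoter sequences from RefSeq.

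Counts were fitted across all genes in R 4.3.3 with edgeR 4.0.16 (TMM, factors 0.98 to 1.02, expression filter by group, robust quasi-likelihood test, two-sided, Benjamini-Hochberg adjusted p of 0.05 over 14105 tested genes). CPM uses TMM-scaled totals. Standard errors come from the fold change and F statistic. Alternatives used limma-voom (limma 3.58.1), DESeq2 1.42.0, other scalings and filters, a replicate block, each library left out, and non-robust dispersions. On simulated data the procedure recovered strong changes with the right sign but let through more unchanged genes than the threshold is meant to. Replicates were compared by chi-square, which gave 36.5 and 57.2 per degree of freedom in DMSO and N_12, well above sampling noise, and all 4 libraries were used. The labels name no separate cultures, so p-values reflect the spread of these samples alone, and that may be technical. Members and lists were chosen with earlier results of these data known. Genes were named by rule: all members, called list genes, in each list the gene with the highest CPM, the 2 smallest p and up to 6 genes at 0, the 5 nearest patterns and the 5 neighbours on each side. Others (GNAQ, GNA11, GNA12, GNA14, GNA15, ARRB1, ARRB2, RGS17, GGA1, GGA2, GGA3, TCF7L2, AXIN2, F2RL1, PLAUR, CXCL8, MMP9, CXCL2, PTGS2, SORCS1, DAG1 and markers) were chosen after their values were seen. Some genes that the rule names are not reported here.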

Additional observations from a re-analysis of the deposited data

How the results depend on the processing

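The count of genes called higher over the whole table, 116, became 438 with the replicate block, 549 with DESeq2, 47 with limma-voom and 47 with dispersions that were not robust, and ranged from 0 to 226 when 1 library was left out. The count of genes called lower, 201, became 525, 671, 84 and 84 under the same settings in that order, and ranged from 0 to 225 with 1 library left out. Among pathway list genes, 0 called higher became 1 with scaling by totals, 1 with no filter and 1 with the stricter filter (ECE1 in each), 4 with the replicate block and 4 with DESeq2, and ranged from 0 to 2 with 1 library left out. The 6 called lower became 11 with the replicate block, 14 with DESeq2, 3 with limma-voom and 3 with non-robust dispersions, and ranged from 0 to 5. The cause was not tested. Replicate numbers are only numbers in the labels. Deviations of same-numbered libraries correlated at -0.126, so the block with crossed numbers was added after seeing the data, and it called 8 genes higher and 20 lower, with 0 and 0 among list genes. In the block fit NTSR1 had a log2 fold change of 1.51 and SORT1 of -0.04. A left-out library leaves a lone sample, assumed to vary like the other group. With 0 to 2 reads, depth allows no comparison for NTS or NTSR2.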
